A study of Mus musculus with 6 samples.

Results

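The 44 collagen chain genes described here were all genes of the platform annotation whose symbol is Col, a type number, the letter a and a chain number, out of 22180 named genes. Their 47 singly named probe sets were reduced to 1 per gene, the brightest on average, and 1 further probe set whose annotation joins Col6a1 to other genes was left out. The chains were sorted into 11 fibrillar genes, 6 basement membrane genes (type IV), 9 FACIT genes and 18 others. RNA came from lung fibroblasts of wild-type male C57BL/6 mice aged 8 weeks, enriched from digested whole lung, grown in serum and passaged no more than 3 times. Cells in 3 wells received vehicle and cells in 3 wells received purmorphamine, an agonist of the Hedgehog transducer Smoothened, for 24 h at a dose labelled 5um and read here as 5 µM. Each well gave 1 Affymetrix array. The labels name no transgene, and they do not say from how many mice or pools the wells came, so p-values measure only how wells of a group differed, and that spread may be technical.

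Collagens are trimers of chains that share long runs of glycine-led triplets wound into a triple helix. Fibrillar collagens, above all types I and III, form the load-bearing fibres of the lung interstitium and of scars, and types V and XI sit within such fibres and set their growth. Type IV collagen builds the sheet of the basement membrane, FACIT collagens coat the surface of fibres, and the remaining types form beaded filaments, short-chain networks, anchoring fibrils or membrane-bound proteins. Procollagen chains are hydroxylated, folded and exported through the endoplasmic reticulum, then trimmed and crosslinked outside the cell. Fibroblasts are the main makers of the fibrillar types.

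Promoter windows from RefSeq (GRCm38.p6), 250 bases before to 50 after the annotated start, were found for 35 of the 44 genes, as 38 windows of 300 bases. They are shown for Col1a2 and Col3a1, the members with the largest differences, and for Col4a1 and Col4a2, which are read in opposite directions from starts close together and were not called. The windows lie at chr6:4505368-4505667 on the plus strand for Col1a2, chr1:45311288-45311587 on the plus strand for Col3a1, chr8:11312777-11313076 on the minus strand for Col4a1 and chr8:11312555-11312854 on the plus strand for Col4a2. The windows of the type IV pair share 78 bases, read on opposite strands, from 11312777 to 11312854. Each is written from 5′ to 3′ along its gene, and capitals mark the CCAAT box, read on either strand (CCAAT or ATTGG).
Col1a2: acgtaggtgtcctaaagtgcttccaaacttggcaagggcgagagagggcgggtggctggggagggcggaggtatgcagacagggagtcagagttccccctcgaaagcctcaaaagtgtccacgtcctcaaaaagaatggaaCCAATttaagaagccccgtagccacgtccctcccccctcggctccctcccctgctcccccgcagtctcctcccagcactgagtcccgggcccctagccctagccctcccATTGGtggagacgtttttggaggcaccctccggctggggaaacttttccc
Col3a1: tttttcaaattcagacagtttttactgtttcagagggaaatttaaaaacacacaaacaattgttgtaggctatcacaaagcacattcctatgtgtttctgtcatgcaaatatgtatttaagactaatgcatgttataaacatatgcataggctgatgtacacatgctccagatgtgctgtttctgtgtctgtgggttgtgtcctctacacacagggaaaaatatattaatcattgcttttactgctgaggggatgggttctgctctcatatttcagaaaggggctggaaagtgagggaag
Col4a1: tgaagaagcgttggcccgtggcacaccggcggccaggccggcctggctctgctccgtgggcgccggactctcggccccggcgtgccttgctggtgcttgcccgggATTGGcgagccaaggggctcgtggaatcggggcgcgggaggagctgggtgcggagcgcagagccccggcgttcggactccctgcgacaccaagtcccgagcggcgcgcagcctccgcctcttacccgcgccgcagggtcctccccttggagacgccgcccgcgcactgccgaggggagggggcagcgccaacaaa
Col4a2: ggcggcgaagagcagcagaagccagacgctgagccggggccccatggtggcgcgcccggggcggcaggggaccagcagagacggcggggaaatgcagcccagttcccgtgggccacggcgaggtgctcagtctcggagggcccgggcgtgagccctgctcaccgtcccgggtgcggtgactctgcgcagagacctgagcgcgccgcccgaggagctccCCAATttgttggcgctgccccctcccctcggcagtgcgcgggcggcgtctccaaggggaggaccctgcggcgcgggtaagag

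The Col1a2 window held the CCAAT box 2 times, first at 109 bases before the start, and the Col3a1 window held none but had TATAAA at 117 bases before it. Col4a1 and Col4a2 held 1 CCAAT box each, at 145 and 32 bases before their starts. Over both strands, CCAAT lay in 34.2% of the collagen windows and in 37.4% of all 32851 promoter windows, and TATAAA lay in 13.2% and 13.6%. The Gli site GACCACCCA, to which the transcription factors of the Hedgehog pathway bind, matched 0 of the 38 collagen windows and 0.253% of all windows. Matches are so rare that 0 among 38 windows cannot show whether collagen genes differ from others in this site. Of the called members 5 had a window, and Col1a1, Col2a1 and Col14a1 had none to search. The Gli and TATAAA letters do not overlap the CCAAT letters as motifs.

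Values are log2 signals, so a difference of 1 is a doubling. The median standard deviation within a group was 0.07 for a collagen gene and 0.09 over all genes, and the median 95% interval of a collagen difference reached 0.153 to either side. On the second principal component (13.2% of the variance), the arrays numbered 3 scored 13.55 (vehicle) and 9.56 (purmorphamine) where the remaining 4 scored -6.88 to -3.06, and the members called without that pair are given with the leave-out results. Of 13 fibroblast markers 8 lay above the upper quartile of gene signals (8.87), as did all 12 leukocyte markers and, of 12 epithelial markers, Cdh1, Krt8 and Krt18. The same held for 5 of 8 smooth muscle and pericyte markers, 3 of 10 endothelial markers and 1 of 5 mesothelial markers. Fibroblast markers were thus bright, and so were markers of each of these other cell types in part or in whole. Of the 12 epithelial markers, 7 lay below the gene median of 6.94. In such bulk RNA, fewer cells of a type and less RNA per cell cannot be told apart, and no collagen signal is assigned here to a cell type.

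Purmorphamine was compared with vehicle to ask which collagen types a Hedgehog agonist changed. A short set of mainly fibrillar chains rose: Col1a2 by 1.40-fold, Col3a1 by 1.39-fold, Col6a1 by 1.29-fold, Col1a1 by 1.24-fold, Col2a1 by 1.20-fold, Col5a1 by 1.19-fold and Col18a1 by 1.17-fold. Col14a1, a FACIT chain, fell by 0.27 on the log2 scale, which is 1.20-fold lower. The mean differences of the 6 type IV chains lay between -0.09 and 0.14, and none passed. At a limma p of 0.05 after Benjamini-Hochberg adjustment over all genes, 7 of 44 members rose (15.9%), where 7.18% of all genes tested rose, and 1 of 44 fell (2.27%), where 7.16% of all genes fell. At an adjusted p under 0.1 the counts were again 7 and 1, against 10.4% and 10.2% of all genes. No member rose or fell by 1.5-fold or more and also passed, which 0.965% of all genes did upward and 1.4% downward. Differences were small throughout: 40 of 44 lay under 0.3 in size, and the median of the 44 was 0.005, beside -0.008 for all genes.

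**Figure D1:**
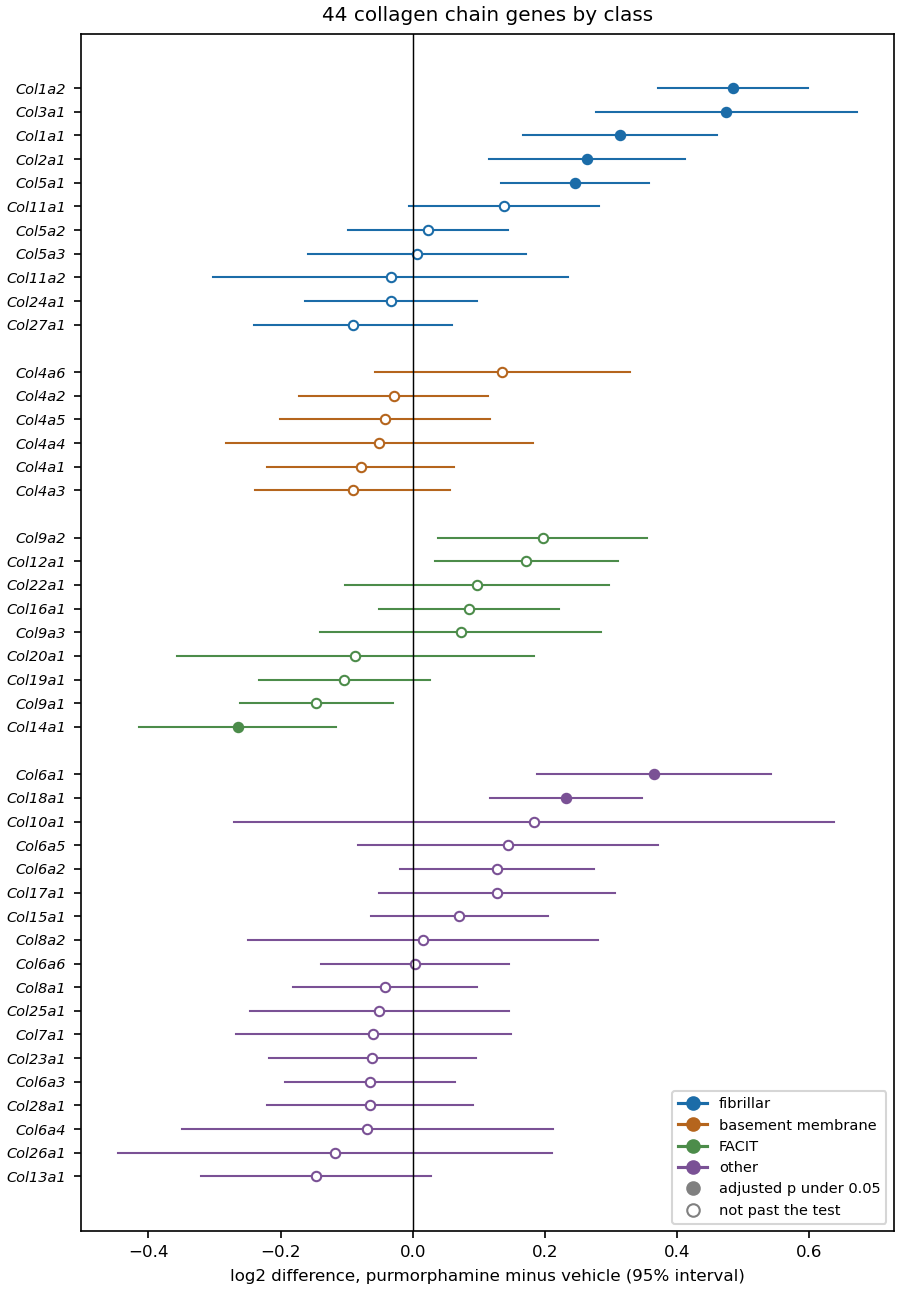
Log2 difference, purmorphamine minus vehicle, for each of the 44 collagen genes with its 95% interval from the limma fit, 3 arrays per group, coloured by class. Filled points passed the test at an adjusted p under 0.05: 5 fibrillar chains, Col6a1 and Col18a1 lie to the right of 0, Col14a1 lies to the left, and the 6 type IV chains lie around 0.

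Among the 11 fibrillar genes 5 rose (45.5%, where 7.18% of all genes rose) and 0 fell, and the median difference was 0.14. At an unadjusted p under 0.05 in limma the counts were also 5 and 0. Averaged over the 11 genes, the departure from the vehicle mean was 0.13, 0.14 and 0.22 in the purmorphamine arrays and -0.02 to 0.03 in the vehicle arrays. Of the 11, 6 lay above the upper quartile of gene signals. Of all genes above that quartile 14.8% rose, a larger share than over genes at large, and of the 11 collagen genes of any class above it 5 rose.

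Col1a2 encodes the partner of the Col1a1 chain in the type I trimer, the most abundant fibre collagen. Its vehicle arrays read 11.76, 11.76 and 11.77 and its purmorphamine arrays 12.23, 12.24 and 12.28. Every purmorphamine array lay above every vehicle array, and the difference was 0.48 (SE 0.05, limma adjusted p = 0.0012, n = 3 per group). The vehicle arrays differed from each other by less here than in any other member, so that the interval, 0.37 to 0.60, rests on the spread that limma shares across genes. A second, dimmer probe set of Col1a2 read 9.26, 9.08 and 9.11 with vehicle and 9.73, 9.64 and 9.62 with purmorphamine, a difference of 0.52. Both probe sets of the gene thus rose by a similar amount.

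Col1a1, which supplies the other type I chain, read 12.73, 12.79 and 12.80 with vehicle and 13.10, 12.99 and 13.17 with purmorphamine. The groups did not overlap, and the difference was 0.31 (95% interval 0.17 to 0.46, limma adjusted p = 0.017). Within each array, Col1a2 minus Col1a1 was -0.97, -1.03 and -1.03 with vehicle and -0.87, -0.76 and -0.89 with purmorphamine. The gap therefore narrowed by 0.17, without overlap of the groups, in an exact two-sided permutation test that gave p = 0.1, the smallest that 3 against 3 arrays allow, and 0.183 after adjustment over the 11 pairs compared.

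Col3a1 encodes type III collagen, which forms mixed fibres with type I in distensible tissues such as lung. It read 9.52, 9.28 and 9.32 with vehicle and 9.89, 9.74 and 9.92 with purmorphamine, with no overlap. The difference was 0.47 (SE 0.08, limma adjusted p = 0.011). Its neighbour on chromosome 1, Col5a2, gave another picture: the vehicle arrays read 11.79, 11.72 and 11.79 and the purmorphamine arrays 11.78, 11.76 and 11.82. These groups overlapped, and the difference of 0.02 had a 95% interval of -0.10 to 0.14. Col3a1 minus Col5a2 rose by 0.45 within arrays, with no overlap (exact permutation p = 0.1, adjusted 0.183).

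Type V collagen starts and thins type I fibres, and its main form joins Col5a1 and Col5a2 chains. Col5a1 read 9.85, 9.86 and 9.84 with vehicle and 10.10, 10.07 and 10.11 with purmorphamine, and these narrow groups did not overlap. The difference was 0.25 (SE 0.05, limma adjusted p = 0.015). The dimmer second probe set of Col5a1, at a mean signal of 6.66 and under the gene median of 6.94, differed by -0.05, and with the mean of both probe sets Col5a1 missed the test (difference 0.10, adjusted p = 0.37). Col5a1 minus Col5a2 was higher by 0.22 in purmorphamine arrays without overlap (exact permutation p = 0.1, adjusted 0.183). The third type V chain gene, Col5a3, differed by 0.01.

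Col2a1, the chain of cartilage type II collagen, read 7.46, 7.55 and 7.56 with vehicle and 7.77, 7.71 and 7.87 with purmorphamine. All purmorphamine arrays were higher, by 0.26 on average (limma adjusted p = 0.033). Of 7 cartilage and bone markers 1 rose (14.3%, beside 7.18% of all genes) and none fell in limma. The marker that rose, by 0.43, was Sox9, the transcription factor of chondrocyte fate that drives Col2a1. Acan differed by -0.14, with all purmorphamine arrays lower, at an unadjusted limma p just under 0.05. Matn1, Sox5, Comp, Sp7 and Ibsp differed by -0.10, 0.03, 0.165, 0.11 and 0.11 without passing. None of the 7 lay above the upper quartile and 5 lay below the gene median, their summed linear signal was 708 to 744 with vehicle and 784 to 841 with purmorphamine, and their part in the Col2a1 result was not tested. The cartilage fibre chains Col11a1 and Col11a2, which together with type II build cartilage fibres, were not called. Col11a1 read 9.33, 9.44 and 9.33 with vehicle and 9.53, 9.43 and 9.56 with purmorphamine, in overlapping groups (difference 0.14, interval -0.01 to 0.28), and Col11a2 differed by -0.03. Col24a1 and Col27a1, minor fibrillar chains, differed by -0.03 and -0.09.

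**Figure D2:**
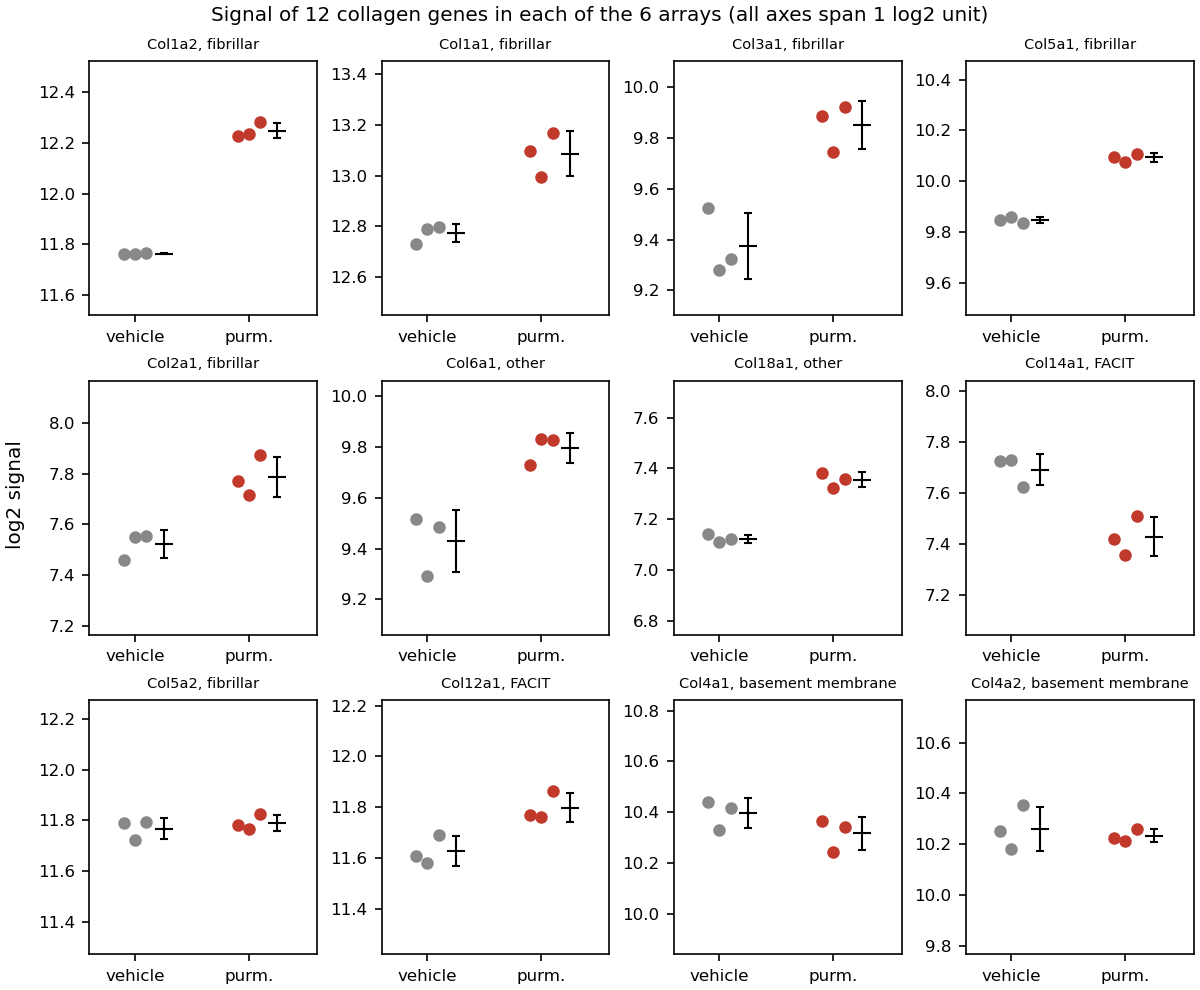
Log2 signal of 12 collagen genes in each array, with vehicle points in grey, purmorphamine (purm.) points in red and the group mean ± SD (n = 3) in black; every axis spans 1 log2 unit. The 8 called members have separate groups, Col12a1 does so without passing the test, and the groups of Col5a2, Col4a1 and Col4a2 overlap.

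The calls differed in how much they rested on single arrays. Whichever single array was dropped, Col1a2 passed the test (limma adjusted p at most 0.0078), and so did Col3a1 (at most 0.045). Col6a1 missed it without purmorphamine replicate 2 or 3. Col1a1 missed it without vehicle replicate 1 or 2 or purmorphamine replicate 1 or 3, at most at an adjusted p of 0.060, and Col5a1 without vehicle replicate 1 or 3 or purmorphamine replicate 1 or 3, at most at 0.056. Col2a1 and Col18a1 missed it in 5 of 6 cases, every case but that without purmorphamine replicate 2. Of the 7 rises, dropping a vehicle array left 3 (replicate 1), 4 (replicate 2) or 4 (replicate 3), and dropping a purmorphamine array left 3 (replicate 1), 6 (replicate 2) or 2 (replicate 3). Without vehicle replicate 3 and purmorphamine replicate 3 together, the 4 arrays left called Col1a2 alone among the members, and 440 genes in all as raised in place of 1593.

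The 6 basement membrane genes, Col4a1 to Col4a6, gave 0 rises and 0 falls with limma, and at an unadjusted p under 0.05 also 0 and 0. Of all genes 7.18% rose and 7.16% fell, so 0 of 6 does not set the class apart. Col4a1 and Col4a2 form the common type IV trimer of most basement membranes. Col4a1 read 10.44, 10.33 and 10.42 with vehicle and 10.37, 10.24 and 10.34 with purmorphamine. Col4a2 read 10.25, 10.18 and 10.35 with vehicle and 10.22, 10.21 and 10.26 with purmorphamine. Groups overlapped in both, with differences of -0.08 (interval -0.22 to 0.06) and -0.03 (-0.17 to 0.11). Both upper limits lie under the Col1a2 difference. Col4a1 minus Col4a2, whose promoter windows share the stretch given above, changed by -0.05 within arrays (exact permutation p = 0.4, adjusted 0.489).

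Col4a3, Col4a4 and Col4a5 make the specialised type IV trimer of kidney glomerulus and alveolar basement membrane, and Col4a6 pairs with Col4a5 in epithelial and smooth muscle sheaths. They differed by -0.09, -0.05, -0.04 and 0.14, all with overlapping groups and with 95% intervals between -0.28 and 0.33. Of these, Col4a4 lay below the gene median. The median of the 6 type IV genes was -0.05.

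Of 9 FACIT genes 0 rose and 1 fell with limma (11.1%, where 7.16% of all genes fell). At an unadjusted limma p under 0.05, 2 of the 9 were higher and 2 lower, as were 3129 and 3125 of all 22180 genes. With 9 genes, these counts do not set the class apart from all genes. Col14a1, which binds decorin on the surface of type I fibres, read 7.73, 7.73 and 7.62 with vehicle and 7.42, 7.36 and 7.51 with purmorphamine. All purmorphamine arrays were lower, and the difference was -0.27 (SE 0.06, limma adjusted p = 0.033). It missed the test without vehicle replicate 1 or 2 or purmorphamine replicate 1 or 2, with an adjusted p of up to 0.10.

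Col12a1 is the close relative of Col14a1 that also coats type I fibres and is known for load-bearing tissue. It read 11.61, 11.58 and 11.69 with vehicle and 11.77, 11.76 and 11.86 with purmorphamine. The groups did not overlap, but the difference of 0.17 (interval 0.03 to 0.31) gave a limma adjusted p of 0.10 and was not called. It passed at 0.045 once the dimmest 33.3% of genes were left out and at 0.0077 with a variance trend and robust fit. Col12a1 and Col14a1 thus had differences of opposite sign, with intervals that do not meet.

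Type IX collagen decorates cartilage fibres. Col9a2 read 8.11, 8.01 and 8.21 with vehicle and 8.34, 8.25 and 8.33 with purmorphamine, a difference of 0.20 (adjusted p = 0.10 in limma). Col9a1 read 6.38, 6.40 and 6.34 with vehicle and 6.21, 6.25 and 6.23 with purmorphamine, a difference of -0.15 (adjusted p = 0.10 in limma). Neither was called, although groups were separate in both, in opposite directions, so Col9a1 minus Col9a2 changed by -0.34 (exact permutation p = 0.1, adjusted 0.183). Col9a3, Col16a1, Col20a1 and Col22a1 ranged from -0.09 to 0.10, and Col19a1, listed next to Col9a1 on chromosome 1, differed by -0.10 with separate groups.

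Of the 18 other genes 2 rose (11.1%, where 7.18% of all genes rose) and 0 fell with limma, and the median difference was -0.02. At an unadjusted limma p under 0.05, 2 of the 18 were higher and 0 lower, beside 3129 and 3125 of all 22180 genes. These counts do not set the class apart from all genes. Type VI collagen, the beaded filament around cells, is built mainly from Col6a1, Col6a2 and Col6a3. Col6a1 read 9.52, 9.29 and 9.49 with vehicle and 9.73, 9.83 and 9.83 with purmorphamine, without overlap, and rose by 0.37 (SE 0.08, limma adjusted p = 0.020). A second Col6a1 probe set, at a mean signal of 6.19 and below the gene median, differed by 0.09.

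The partners of Col6a1 were not called. Col6a2, which lies 2 listed genes away on chromosome 10, read 8.25, 8.16 and 8.22 with vehicle and 8.41, 8.34 and 8.25 with purmorphamine, a difference of 0.13 (interval -0.02 to 0.27). Col6a3 read 8.32, 8.25 and 8.25 with vehicle and 8.22, 8.15 and 8.26 with purmorphamine, a difference of -0.06 (interval -0.19 to 0.06). The groups of both genes overlapped. Within arrays, Col6a1 moved up against Col6a2 by 0.24, and Col6a3 moved down against Col6a1 by 0.43, each with separate groups (exact permutation p = 0.1, adjusted 0.183). Col6a4, Col6a5 and Col6a6, close paralogs that lie side by side on chromosome 9 and are uncertain as separate signals, differed by -0.07, 0.14 and 0.003, and all were below the gene median.

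**Figure D3:**
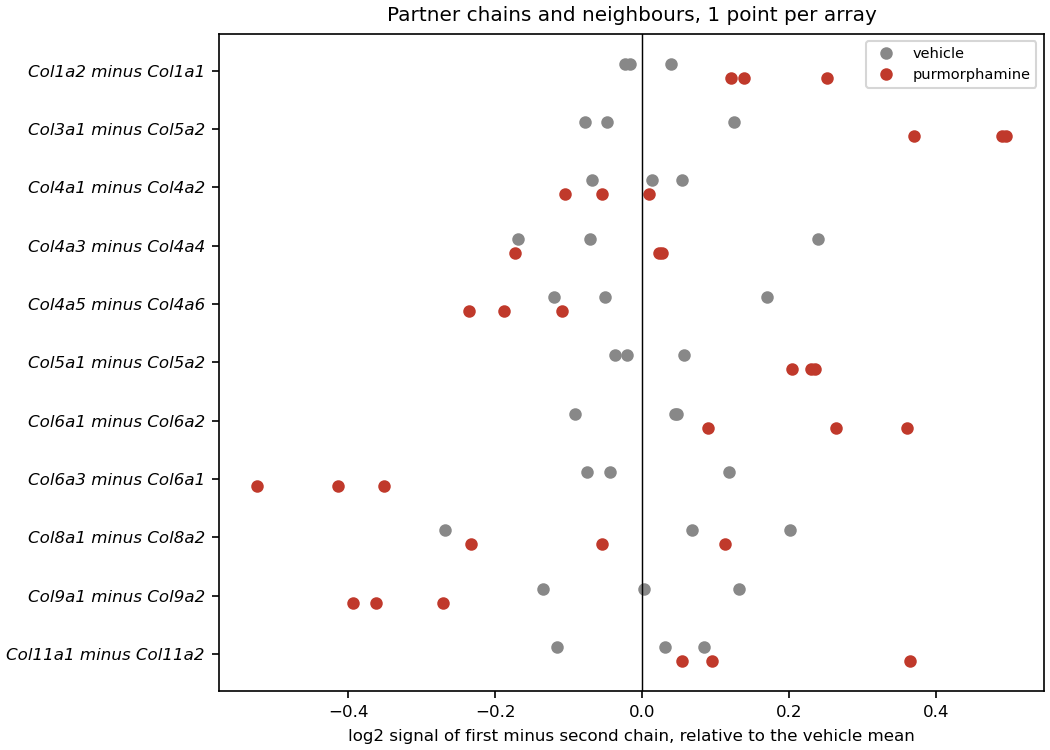
Log2 signal of 1 chain minus that of its partner or neighbour in each array, set to 0 at the vehicle mean; grey points are the 3 vehicle arrays and red points the 3 purmorphamine arrays. In 6 of the 11 pairs the groups are apart, all at the smallest exact p of 0.1, among them Col3a1 minus Col5a2 (0.45) and Col6a3 minus Col6a1 (-0.43), and the groups of the type IV, VIII and XI pairs overlap. All of the 6 but the type IX pair hold a called member, so their separation partly restates those calls. Pairs of other genes were not compared.

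Col18a1 and Col15a1 are multiplexins of basement membrane zones, and the end of Col18a1 is released as endostatin, an inhibitor of vessel growth. Col18a1 read 7.14, 7.11 and 7.12 with vehicle and 7.38, 7.32 and 7.36 with purmorphamine, in narrow and separate groups. The difference was 0.23 (SE 0.05, limma adjusted p = 0.021). Col15a1 differed by 0.07 with overlapping groups. Counting both as basement membrane genes made that class 1 rise among its genes. Of 10 endothelial markers 5 rose and 0 fell with limma (7 and 0 at an unadjusted p under 0.05). Over all genes 7.18% rose and 7.16% fell. The summed linear signal of these markers was 4430 to 4734 with vehicle and 5169 to 5387 with purmorphamine, and 3 lay above the upper quartile. Their part in the Col18a1 result was not tested.

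The remaining chains showed no call. Col8a1, a short-chain network collagen of vessel walls, read 10.07, 9.98 and 10.03 with vehicle and 10.01, 9.90 and 10.04 with purmorphamine, and the groups overlapped (difference -0.04, interval -0.18 to 0.10). Its partner Col8a2 differed by 0.02. Col10a1, the network chain of growth cartilage, was the most variable member, with 7.46, 6.97 and 6.97 with vehicle and 7.58, 6.95 and 7.41 with purmorphamine, so that its difference of 0.18 had an interval of -0.27 to 0.64. Col7a1, the anchoring fibril chain, differed by -0.06, and the membrane-bound chains Col13a1, Col17a1, Col23a1 and Col25a1 by -0.15, 0.13, -0.06 and -0.05. Col13a1 was lower in all 3 purmorphamine arrays, at an adjusted p of 0.26 in limma. Col26a1 and Col28a1 differed by -0.12 and -0.06.

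Counted by separation alone, the purmorphamine arrays lay all above the vehicle arrays in 10 of 44 members, where 17.1% of all genes did so, and all below in 4 of 44, where again 17.1% did. Of the 10, 5 were fibrillar, 3 FACIT and 2 other, and of the 4, 3 were FACIT and 1 other. Over the 44 members, differences rose with mean signal (Spearman rho 0.40 across genes, which share the arrays and are not independent). In total 13 members lay below the gene median of 6.94.

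**Figure D4:**
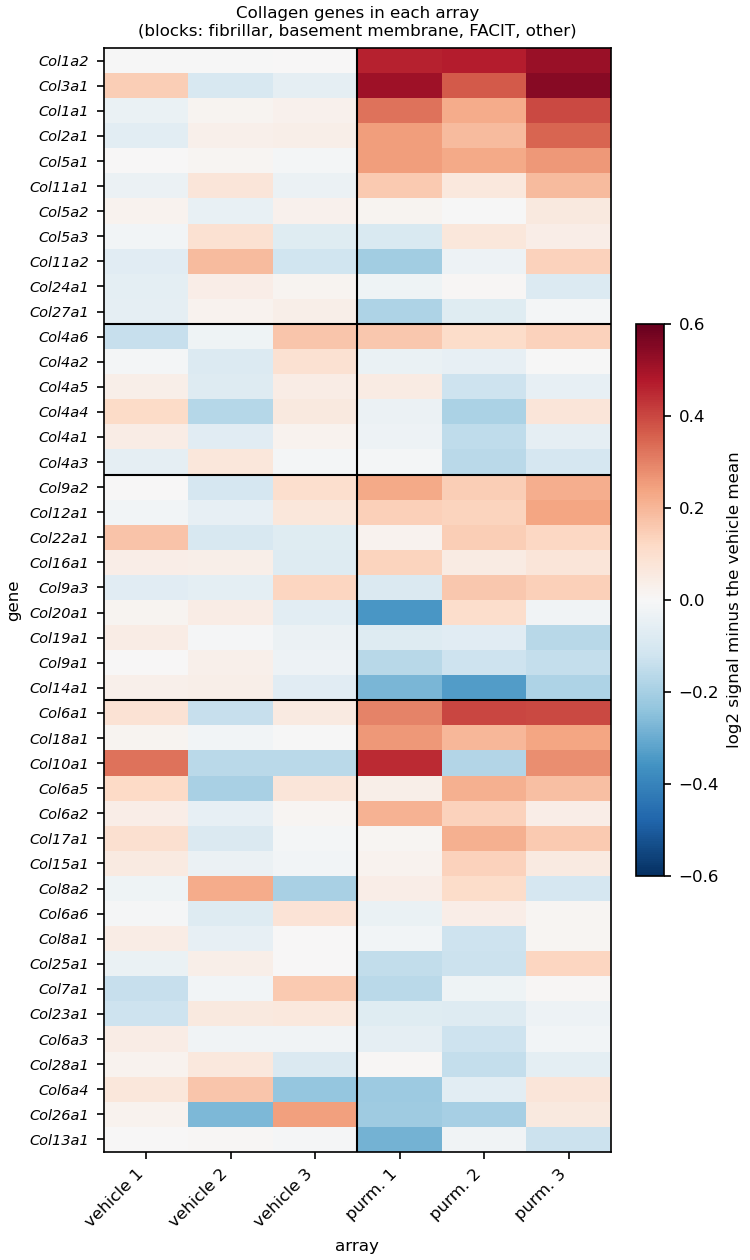
Log2 signal minus the vehicle mean for the 44 collagen genes (rows, in blocks by class) in each of the 6 arrays (columns), red for higher and blue for lower on a scale of -0.6 to 0.6. The first rows of the fibrillar block and Col6a1 and Col18a1 are red in all 3 purmorphamine (purm.) arrays, whereas the basement membrane block shows no shared colour.

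Genes that process collagen were read from lists of 35 analysed genes. Of these, 12 rose and 2 fell, 34.3% and 5.71%, again beside 7.18% and 7.16% of all genes. Of the 35, 27 lay above the upper quartile of gene signals, where 14.8% of all genes rose and 14.5% fell. Of 9 genes for folding and export 6 rose and 0 fell with limma (7 and 0 at an unadjusted p under 0.05), with a median of 0.38. Fkbp14, a prolyl isomerase that folds procollagen in the endoplasmic reticulum, read 8.94, 8.90 and 8.86 with vehicle and 9.70, 9.63 and 9.65 with purmorphamine and rose by 0.76 (SE 0.05, limma adjusted p = 3.11e-04). Sec23a, which encodes a coat protein of the vesicles that leave the endoplasmic reticulum, read 10.78, 10.81 and 10.79 with vehicle and 11.54, 11.46 and 11.51 with purmorphamine and rose by 0.71. Its coat partner Sec24d rose by 0.58. These groups lay far apart relative to their spread.

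Further export genes rose by less. Tmem38b, an ion channel of the endoplasmic reticulum needed for collagen modification, rose by 0.49, and Mia3, the receptor that loads procollagen into vesicles, by 0.38. Creb3l1, a transcription factor that drives type I collagen genes in bone, rose by 0.25, but missed the test without vehicle replicate 1, 2 or 3 or purmorphamine replicate 1 or 3 (adjusted p up to 0.094). The collagen chaperone gene Serpinh1, which encodes HSP47, differed by -0.12 (interval -0.27 to 0.03), and Sparc and Mia2 by 0.11 and 0.11, and these did not pass. Fkbp10 was not analysed here.

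Of 15 hydroxylation and glycosylation genes 6 rose and 0 fell with limma (6 and 2 at an unadjusted p under 0.05), with a median of 0.11. The 6 are 40% of the list, where 7.18% of all genes rose. Of the 15, 13 lay above the upper quartile of gene signals, where 14.8% of all genes rose. Among the catalytic subunits of prolyl 4-hydroxylase, which makes the triple helix stable at body temperature, P4ha2 read 9.40, 9.16 and 9.29 with vehicle and 9.82, 9.88 and 9.82 with purmorphamine and rose by 0.56 (SE 0.07, limma adjusted p = 0.0030). P4ha3 rose by 0.41 and missed the test without vehicle replicate 3 or purmorphamine replicate 1 (adjusted p up to 0.053). P4ha1 and the shared subunit P4hb differed by 0.14 and 0.11 without passing. Plod2, the lysyl hydroxylase of the chain ends where crosslinks form, rose by 0.43, while Plod1, which acts on the helix, differed by -0.19 (adjusted p = 0.078 in limma). The prolyl 3-hydroxylase family members P3h1, P3h4 and P3h3 rose by 0.45, 0.44 and 0.31, but P3h3 was called on 5 arrays only when purmorphamine replicate 3 was the one dropped (otherwise adjusted p up to 0.076). The partners of P3h1 in its complex, Crtap and Ppib, differed by 0.07 and 0.09.

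**Figure D5:**
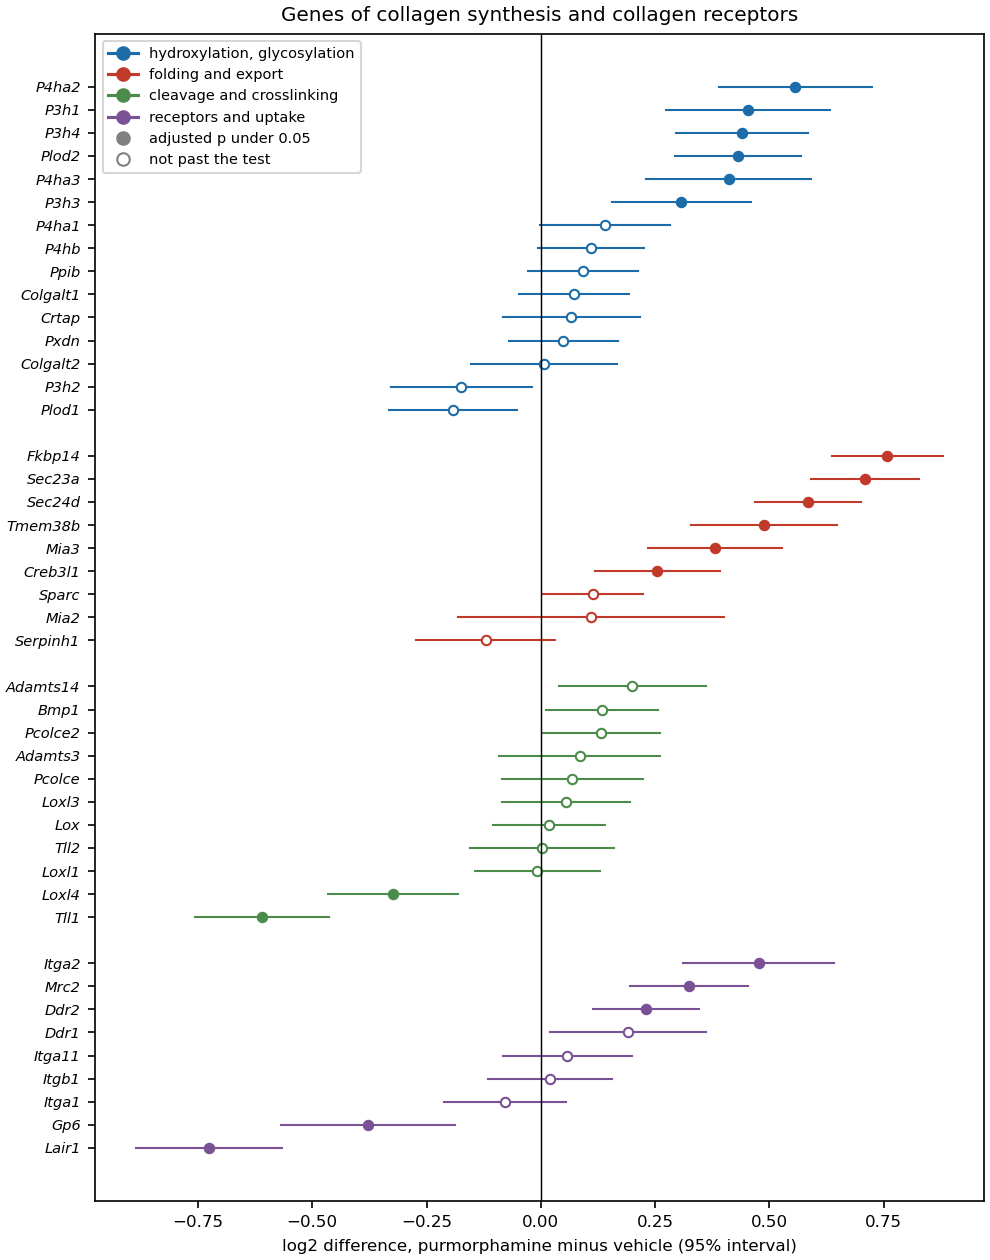
Log2 difference, purmorphamine minus vehicle, with 95% interval for 44 analysed genes of collagen modification, folding and export, cleavage and crosslinking, and collagen receptors (n = 3 arrays per group). Filled points passed the limma test; the export genes Fkbp14 (0.76) and Sec23a (0.71) lie farthest right, and Lair1 (-0.73) and Tll1 (-0.61) farthest left.

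Of 11 genes for procollagen cleavage and crosslinking 0 rose and 2 fell with limma (3 were higher and 2 lower at an unadjusted p under 0.05). The 2 are 18.2% of the list, where 7.16% of all genes fell. Of the 11, 6 lay above the upper quartile of gene signals, where 14.5% of all genes fell. Tll1, a tolloid-like protease that trims the procollagen end, read 10.71, 10.70 and 10.78 with vehicle and 10.12, 10.04 and 10.20 with purmorphamine, with separate groups, and fell by 0.61 (SE 0.06, limma adjusted p = 0.0012). Loxl4, a lysyl oxidase-like crosslinking gene, fell by 0.32. The main crosslinking enzyme gene Lox differed by 0.02 (interval -0.11 to 0.14), the main trimming protease gene Bmp1 by 0.13 and its enhancer Pcolce by 0.07, and these 3 did not pass. Plod3, Adamts2 and Loxl2 were not analysed here.

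Of 9 collagen receptor and uptake genes 3 rose (33.3%) and 2 fell (22.2%), where 7.18% of all genes rose and 7.16% fell. Of the 9, 7 lay above the upper quartile of gene signals, where 14.8% of all genes rose and 14.5% fell. Itga2, the collagen-binding integrin subunit, read 8.98, 8.90 and 9.03 with vehicle and 9.43, 9.56 and 9.35 with purmorphamine and rose by 0.48 (limma adjusted p = 0.0052). Mrc2, the endocytic receptor by which mesenchymal cells take up collagen fragments, rose by 0.32, and Ddr2, a receptor tyrosine kinase for fibrillar collagen, by 0.23, but Ddr2 was not called whichever single array was dropped (limma adjusted p 0.056 to 0.073). Lair1, an inhibitory collagen receptor of leukocytes, read 9.52, 9.46 and 9.33 with vehicle and 8.72, 8.77 and 8.64 with purmorphamine and fell by 0.73 (limma adjusted p = 9.24e-04). Gp6, the platelet collagen receptor, was below the gene median and fell by 0.38, and it was called on 5 arrays only when purmorphamine replicate 2 was the one dropped (otherwise adjusted p up to 0.072). Itgb1, Itga1, Itga11 and Ddr1 differed by 0.02, -0.08, 0.06 and 0.19 without passing, and Itga10 was not analysed here.

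Markers of other cell types and of fibroblasts were counted in the same fit. Of 13 fibroblast markers 6 rose (46.2%) and 2 fell (15.4%), where 7.18% of all genes rose and 7.16% fell. Pdgfra, Lum, Dcn, Tcf21, Pdgfrb and Fbln1 rose by 0.83, 0.49, 0.46, 0.42, 0.38 and 0.34, and of these Lum lay below the gene median. S100a4 and Thy1 fell by 0.35 and 0.32. The summed linear signal of the 13, 40282 to 42005 with vehicle and 41644 to 41982 with purmorphamine, overlapped between groups. That sum is weighted to the brightest markers, such as Fn1, Vim and Fbln2 (means 13.67, 13.67 and 12.52), which were not called. The summed linear signal of the 11 fibrillar collagen genes was 16907 to 17148 with vehicle and 19929 to 21511 with purmorphamine, without overlap. This sum too is weighted to its brightest genes, Col1a1, Col1a2 and Col5a2 (means 12.93, 12.01 and 11.78). Of these, Col1a1 and Col1a2 were called and Col5a2 was not, so the sum does not show a rise of the whole class. Of 12 leukocyte markers 0 rose and 4 fell with limma (3 were higher and 5 lower at an unadjusted p under 0.05). Their sum was 65004 to 65641 with vehicle and 59920 to 61848 with purmorphamine. The 4 that fell (33.3%) were Itgam (-1.46), Csf1r (-0.63), Mrc1 (-0.62) and Adgre1 (-0.375). All 12 lay above the upper quartile of gene signals, where 14.5% of all genes fell. Of 8 smooth muscle and pericyte markers 1 rose and 4 fell, with sums of 35384 to 35590 and 30434 to 31160. Rgs5, below the gene median, rose by 1.22, and Myh11, Cspg4, Cnn1 and Acta2 differed by -0.47, -0.31, -0.24 and -0.19. Epithelial markers gave 1 rise and 1 fall among 12 and overlapping sums (4828 to 4997 and 4883 to 4943), and 5 mesothelial markers gave no call with limma (1 was higher at an unadjusted p under 0.05) and overlapping sums (1624 to 1694 and 1641 to 1699). RMA values have no 0. Of the markers of these lists and of the endothelial list, only the epithelial Scgb1a1 lay below the lower quartile of gene signals (5.53). Of the 12 epithelial markers, however, 7 lay below the gene median of 6.94: Scgb1a1, Sftpc, Sftpb, Sftpd, Foxj1, Nkx2-1 and Cldn18. The part of these markers in the collagen differences was not tested.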

How the data were processed

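RNA of 6 wells was measured on Affymetrix arrays after poly(T)-primed amplification of 100 ng per sample, per the labels' protocols. Per the submitters' processing notes, oligo, RMA and limma were used, with versions not given in the sources used here. Values deposited by the authors are log2 signals, 1 per probe set and array. RMA equalises the distributions of arrays, which hides any shift shared by every gene, and it compresses changes of dim genes. The number of arrays limits the precision.

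Of 41345 probe sets, 23521 had 1 gene symbol in the platform annotation, giving 22180 genes, each by its probe set of highest mean. Purmorphamine minus vehicle was fitted over all genes in R 4.3.3 with limma 3.58.1 (lmFit, then eBayes), two-sided, with Benjamini-Hochberg adjustment and a threshold of 0.05. Partner chains were compared by exact permutation over the 6 arrays. The smallest p of that test with 3 against 3 arrays is 0.1, so no pair could pass 0.05. The steps were tested on simulated data. Plots were drawn with Python 3.11.15 and matplotlib 3.10.9. The members, classes and lists were chosen with earlier results of these data known. Values in every array were given for members past the test or above the upper quartile of signal, and for the partner chains Col6a2 and Col6a3. Values of Col9a1, Col9a2 and Col10a1 were added after they were seen. Of the processing and receptor lists, the genes past the test with the 6 largest differences and their partners were to be named, and the other genes of these lists were added after their values were seen. The files name no genome build, so gene neighbours come from RefSeq (GRCm38.p6), where all 44 members were found, without gene coordinates.

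The alternatives were median centring, quantile normalization, removal of the dimmest 33.3% of genes, 50 added on the linear scale, the mean of probe sets, a variance trend with robust fit, the replicate number as a block, array weights, dropping each array, a wider threshold of 0.1, a minimum fold of 1.5, separate tests of all probe sets and type XV and XVIII chains as basement membrane genes. Leaving out both replicates numbered 3 was chosen after seeing the data.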

Additional observations from a re-analysis of the deposited data

How the results depend on the processing

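The 8 called members, each read from its brightest probe set or from the mean of its probe sets, kept their direction under the alternatives run. The dimmer Col5a1 probe set on its own differed by -0.05. Median centring, quantile normalization, array weights and separate tests of every probe set gave 7 rises and 1 fall among the members. The mean of probe sets gave 6 rises and 1 fall. With the linear offset and with the trend and robust fit, Col9a2 and Col12a1 were also called, so 2 FACIT genes rose. Over all genes rises went up as well, from 1593 to 2291 with the offset and to 2416 with the trend and robust fit. Without the dimmest genes, and so with 14786 genes tested, 2 FACIT genes rose and 2 fell, making 2 falls over the 44 members, and 1 receptor gene fell. Of all 14786 genes, 2250 rose and 2092 fell. Multiplexins counted as basement membrane genes gave that class 1 rise. A fold of at least 1.5 left 0 rises and 0 falls among the members (0 fibrillar, 0 FACIT, 0 other), 2 rises and 1 fall among processing genes, and 0 rises and 1 fall among receptors.

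Dropping single arrays, which leaves fewer samples, gave 2 to 6 member rises and 0 to 1 falls. Over all genes it gave 897 to 1168 rises and 1057 to 1206 falls, in place of 1593 and 1588. Fibrillar rises ran from 2 to 5, other rises from 0 to 1, FACIT falls from 0 to 1 and receptor falls from 1 to 2, and processing gene rises from 9 to 11. The median log2 difference of collagen genes ran from -0.005 to 0.035 and has no stable sign. Without both replicates numbered 3, the counts were 1 rise (1 fibrillar, 0 other) and 0 falls (0 FACIT) among members, 4 rises and 1 fall among processing genes, and 1 rise and 1 fall among receptors. All genes then gave 440 rises and 511 falls.

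With the replicate number as a block, 3 members rose (3 fibrillar: Col1a1, Col1a2 and Col3a1, and 0 other), 0 fell (0 FACIT), and 1 receptor gene fell. Over all genes the block gave 1193 rises and 1239 falls. Deviations of same-numbered arrays correlated at 0.106, 0.024 and 0.103 over genes. Pairs of different number correlated at -0.095 to -0.008, so each array correlated best with its own number, a hint from the data and not from the labels. The arrays numbered 3 also lay together on the second principal component (13.55 and 9.56). Because the labels name no shared source, the numbers were not taken to pair the arrays. Whether they do cannot be told here, and if they do, the lower counts with the block are the ones that apply.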
